A study of Mus musculus with 3 samples.

Results

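The section of a susceptible mouse (SUS) was set against the section of a resilient mouse (RES), spot by spot within each annotated part of the brain. Members were chosen by the section name that the deposited table gives for each spot, and they numbered 5668 of the 8549 listed spots, 2840 in SUS and 2828 in RES. Both animals were male C57BL/6J mice of 8 weeks that had gone through 10 days of chronic social defeat stress (CSDS), a procedure in which a mouse is repeatedly attacked by a larger aggressor, so the stress itself was shared by the 2 sections. They were told apart by the social interaction ratio, the time spent near a strange CD-1 mouse over the time spent at the empty cage, which was above 1 for RES and below 1 for SUS. The section of an undefeated control mouse (CON) is given beside them. Tissue was taken 1.5 h after the last exposure, and a 10 µm coronal section of the left brain was placed on a Visium slide, on which barcoded capture spots record messenger RNA where it lay. A spot covers several cells or parts of them. With 1 section, and so 1 animal, per condition, no test between RES and SUS was possible, and the mouse, the section, the library and the behavioural class cannot be told apart.

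Spots carried an annotation of 11 brain regions, split into 17 areas where the Isocortex and the hippocampus (HIP) were divided. The 8 larger regions were Isocortex, HIP, amygdala (AMY), olfactory area (OLF), cerebral nuclei (CNU), thalamus (TH), hypothalamus (HY) and fiber tracts (FB). The deposited label CTXsp, the cortical subplate, was taken as AMY, the name used in the paper, and its match with the amygdala was not tested. The 3 small ones were lateral entorhinal area (ENTl), lateral ventricle (LV) and dorsal part of the midline ventricle (D3V). The 5 measures of each spot were the number of unique molecular identifiers (UMIs, single captured transcripts), the number of genes with a UMI, and the percentages of transcripts assigned to mitochondrial genes, to ribosomal protein genes and to red blood cell genes. The percentages do not look like shares of the listed UMI number, and the sources used here do not state their total. No counts of single genes were analysed here, so the annotation could not be checked against marker genes, and all values describe spots and not cell types.

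Transcripts of the mitochondrial genome encode subunits of the respiratory chain, and they are abundant in tissue with many mitochondria, such as the synapse-rich layers of the hippocampus and cortex. Ribosomal protein transcripts encode the protein part of the translation machinery and are found in every cell. Red blood cell transcripts, chiefly those of the haemoglobin chains, come mostly from blood held in vessels, while some haemoglobin is also made by neurons and glia. The brains were rinsed to remove blood, and the sources used here do not state a perfusion. The amygdala, the hippocampus and the hypothalamus take part in fear memory, context memory and the hormonal stress response. The thalamus relays sensory and limbic input to the cortex, and the fiber tracts hold myelinated axons with few neuronal cell bodies.

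The summed depth was 34979160 UMIs in SUS and 31196847 UMIs in RES. Fewer than 1000 UMIs were found in 2 spots of SUS and 42 spots of RES. For the share of spots in each section, the exact binomial 95% intervals of SUS and RES overlapped in all 11 regions and in the areas. Such overlap does not show that the shares were equal. The widest gaps were in the temporal association and perirhinal area (TEP), with 114 spots in SUS and 81 in RES, in AMY, with 199 and 155 spots, and in the auditory area (AUD), with 181 and 231 spots. The sections also differed in their place on the slide. The RES tissue ran to the last columns of the capture area, where 33 listed spots lay, among them 15 of AUD and 11 of TEP, whereas no SUS spot lay there. Unless named as exact binomial, the intervals given hereafter are 95% order-statistic intervals over spots. They cover the spread within a section and not that between animals, and they take spots as independent although adjacent spots of 1 region resembled each other, with rank correlations of 0.446 in SUS and 0.450 in RES for UMIs and of 0.542 and 0.562 for the mitochondrial percentage.

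Across the whole section, SUS spots held slightly more UMIs, a lower mitochondrial percentage and a far higher red blood cell percentage than RES spots. The median was 10947.5 UMIs in SUS and 10054.5 in RES, a ratio of 1.09 (interval 1.03 to 1.15), and 12912 in CON. The median mitochondrial percentage was 8.03% in SUS and 9.64% in RES, a ratio of 0.833 (interval 0.805 to 0.861). The median ribosomal protein percentage was 7.47% and 7.30%, a ratio of 1.02 (interval 1.01 to 1.04). The median red blood cell percentage was 0.281% and 0.0714%, a ratio of 3.94 (interval 3.65 to 4.20). Among all pairs of 1 SUS and 1 RES spot, the SUS spot was the higher one in 55.5% for UMIs, in 36.5% for the mitochondrial percentage, in 53.5% for the ribosomal protein percentage and in 85.6% for the red blood cell percentage, so the sections overlapped widely in all measures but the last.

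Over all spots of a region, the UMI interval left out 1 in 4 regions. OLF, which processes odour input, had a median of 8906 UMIs in SUS and 5542 in RES, a ratio of 1.61 (interval 1.40 to 1.86). FB had 5599 UMIs in SUS and 3522.5 in RES, a ratio of 1.59 (interval 1.42 to 1.83). HY, the seat of the neurons that start the hormonal stress response, had 15228.5 UMIs in SUS and 11022 in RES, a ratio of 1.38 (interval 1.22 to 1.56). TH had 12519 UMIs in SUS and 10515 in RES, a ratio of 1.19 (interval 1.11 to 1.28). The ratio was 1.01 (interval 0.943 to 1.08) in Isocortex and 1.09 (interval 0.900 to 1.21) in HIP. It was 0.916 (interval 0.836 to 1.05) in AMY and 0.909 (interval 0.786 to 1.04) in CNU, which holds the striatum and pallidum. The interval lay above 1 in 4 of the 8 larger regions, below 1 in 0, and included 1 in the other 4, so no region as a whole had clearly fewer UMIs in SUS.

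In these 4 regions RES had the lowest median of the 3 sections. In OLF, CON had the highest median, 15669 UMIs. In HY the SUS median stood next to the 15928.5 UMIs of CON, with RES apart from both. In FB the RES median stood next to the 3701 UMIs of CON, with SUS above both. In TH, CON lay between them at 11080 UMIs. In AMY and CNU both stressed sections were far under CON, which had 12930 and 12198 UMIs, and the 2 were close to each other.

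Within regions the difference was not even. In FB the tenth percentile of UMIs was 3.96 times as high in SUS as in RES, whereas the ninetieth percentile was 1.27 times as high. Of the RES fiber tract spots, 40 of 286 held fewer than 1000 UMIs, and of the SUS ones 1 of 267. Cut into 3 bands of equal size from the midline outwards, FB had ratios of 2.41, 1.48 and 1.61, so the gap was widest near the midline. HY had 1.68, 1.31 and 1.12 in the same order, the medial band being the one that borders the midline ventricle. AMY had 0.715, 0.988 and 1.10, in the opposite order. By rank of UMIs, the shallower spots of CNU had a ratio of 1.05 (interval 0.938 to 1.15) and the deeper ones 0.833 (interval 0.768 to 0.935). Isocortex went the other way, with 0.895 (interval 0.815 to 0.987) among shallower and 1.09 (interval 1.04 to 1.13) among deeper spots.

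In the Isocortex the ratio differed between the rim and the depth of the tissue. Among spots up to 3 grid steps from a place without tissue, the median was 8212.5 UMIs in SUS and 12626 in RES, a ratio of 0.650 (interval 0.522 to 0.908). At 4 steps or more it was 16868.5 and 14918.5, a ratio of 1.13 (interval 1.07 to 1.20). The rim, which holds the outer cortical layers and the surface of the brain, took 30.2% of the SUS and 22.4% of the RES cortical spots. The rims were unlike in makeup, TEP giving 34 spots in SUS and 0 in RES and AUD 50 and 31, and 26 cortical spots of RES lay in the last columns of the slide, which do not count as a rim. The primary somatosensory area (SSp), with rims of 30.6% in both sections, had a ratio of 0.705 (interval 0.526 to 1.14) at the rim and 1.17 (interval 1.07 to 1.27) inside. AUD had 0.624 (interval 0.419 to 1.20) and 1.17 (interval 1.04 to 1.34). The contrast was smaller in the retrosplenial area (RSP), with 0.872 (interval 0.438 to 1.46) and 1.04 (interval 0.797 to 1.22), and in the posterior parietal area (PTL), with 0.953 (interval 0.481 to 1.58) and 1.08 (interval 0.955 to 1.27). Within each of these 4 areas the intervals of rim and inside overlapped. In OLF the ratio was above 1 both at the rim, 1.46 (interval 1.02 to 2.01), and inside, 1.68 (interval 1.30 to 1.93).

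Areas that went against their region were few. TEP, at the lateral border of the cortex, had a median of 9580.5 UMIs in SUS and 10577 in RES, a ratio of 0.906 (interval 0.769 to 1.09), while the other 4 Isocortex areas had ratios from 1.01 in RSP to 1.08 in SSp. All 34 rim spots of TEP were in SUS, and inside the rim its ratio was 1.07 (interval 0.819 to 1.32). The dentate gyrus (DG), the entry of the hippocampal circuit, had 10455 UMIs in SUS and 10679 in RES, a ratio of 0.979 (interval 0.662 to 1.36), beside 1.06 in CA1 and 1.16 in CA3. D3V had the highest medians of all, 26238 UMIs in SUS and 20568 in RES, a ratio of 1.28 (interval 0.480 to 2.30) over 9 spots a side, and LV had 10958.5 and 8312 UMIs, a ratio of 1.32 (interval 0.323 to 3.34) over 10 and 9 spots. ENTl had a ratio of 1.11 (interval 0.585 to 1.61). These 3 small regions hold too few spots to place the ratio.

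The genes per spot followed the UMIs and did not differ at equal depth. The median was 4302 genes in SUS and 4097 in RES, a ratio of 1.05 (interval 1.02 to 1.09). The interval was above 1 in the same 4 regions as for UMIs. OLF had 3894.5 genes in SUS and 2882 in RES, a ratio of 1.35 (interval 1.248 to 1.49), and FB had 2501 and 1810, a ratio of 1.38 (interval 1.22 to 1.57). HY had a ratio of 1.20 (interval 1.12 to 1.28) and TH one of 1.11 (interval 1.07 to 1.15). The ratio was 1.01 in Isocortex, 1.05 in HIP, 0.954 in AMY and 0.947 in CNU, each with an interval that included 1. RSP, with 4978 and 5054 genes, and TEP, with 4075.5 and 4222 genes, lay under 1 at 0.985 (interval 0.865 to 1.08) and 0.965 (interval 0.864 to 1.06) while Isocortex as a whole lay above it.

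When spots were sorted into bins of 2500 UMIs, the ratio of gene numbers was between 0.995 and 1.02 in all 10 bins with enough spots. Within the 8 larger regions it ran from 0.981 in HY to 1.05 in OLF, and among spots of 10000 to 15000 UMIs from 0.982 in CNU to 1.04 in FB. A SUS spot and a RES spot of the same depth thus held nearly the same number of genes. The UMI ratio itself cannot be matched for depth, and RNA content, capture and sequencing depth cannot be told apart in it.

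**Figure D1:**
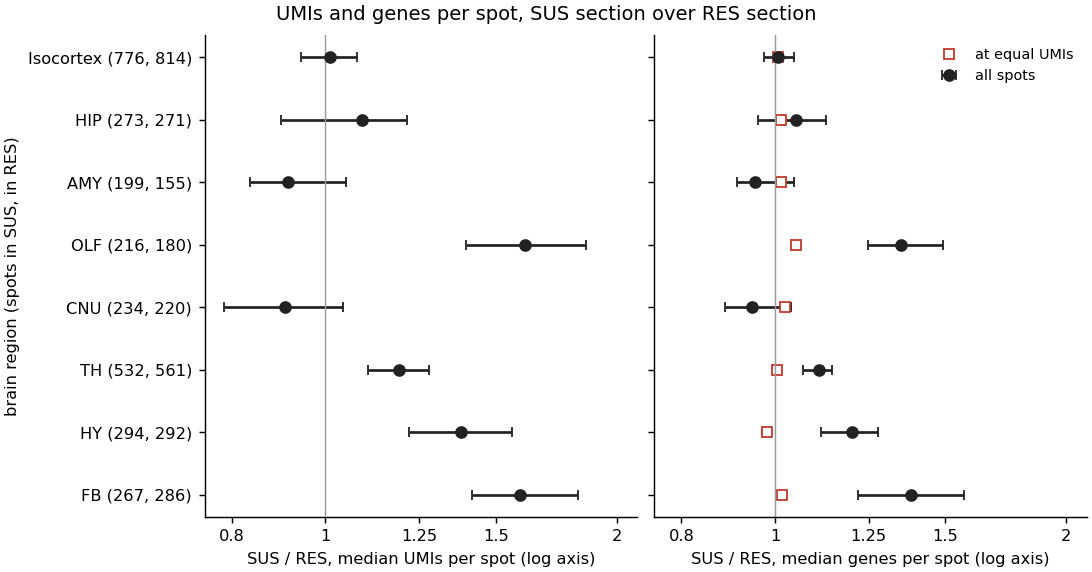
Ratio of the SUS to the RES median of UMIs per spot (left) and genes per spot (right) in the 8 larger regions, on log axes, with the number of spots in SUS and RES in brackets. Circles are ratios over all spots with 95% intervals, open squares are gene ratios at equal UMIs. OLF, TH, HY and FB lie to the right of 1 in both panels, and the squares lie close to 1.

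The mitochondrial percentage was lower in SUS than in RES nearly throughout the section, and HY was the region that did not share this. The lowest ratios were those of the dentate gyrus and the posterior parietal cortex, whose intervals overlapped those of some other areas. AMY had a median of 5.82% in SUS and 7.96% in RES, a ratio of 0.732 (interval 0.683 to 0.7995). OLF had 6.13% and 8.14%, a ratio of 0.753 (interval 0.679 to 0.850). CNU had 7.30% and 9.49%, a ratio of 0.769 (interval 0.725 to 0.816). These 3 regions of the ventral and lateral forebrain had much the same ratio as HIP, at 0.768 (interval 0.645 to 0.888), and Isocortex, at 0.778 (interval 0.742 to 0.830).

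The gap was narrower in FB and TH, and the HY interval over all spots included 1. FB had 7.70% in SUS and 9.01% in RES, a ratio of 0.854 (interval 0.796 to 0.896), and TH had 10.7% and 11.8%, a ratio of 0.906 (interval 0.876 to 0.942). HY had 11.1% in SUS and 10.5% in RES, a ratio of 1.05 (interval 0.984 to 1.11). The interval lay below 1 in 7 of the 8 larger regions. CON was the highest and SUS the lowest in 6 of the 8, whereas in HY the order was turned, with CON lowest at 9.32%. Of the 17 areas, 16 had a ratio below 1, 10 of them with the whole interval below 1, and 14 had the order CON above RES above SUS. Among the small regions the ratio was 0.767 (interval 0.635 to 1.07) in ENTl, with 5.15% in SUS and 6.72% in RES (1.20 by the means), 0.814 (interval 0.611 to 1.07) in D3V and 0.936 (interval 0.710 to 1.59) in LV.

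Within the Isocortex the ratio ran over a wide range. PTL, which joins visual and somatosensory input, had a median of 5.73% in SUS and 8.80% in RES, a ratio of 0.652 (interval 0.605 to 0.716), and the SUS spot was the higher in 15.7% of pairs. SSp had 7.24% and 9.50%, a ratio of 0.762 (interval 0.709 to 0.806). AUD had 0.841 (interval 0.772 to 0.942), RSP 0.861 (interval 0.785 to 0.989) and TEP 0.945 (interval 0.881 to 1.05). The interval of PTL lay below those of AUD, RSP and TEP. RSP, which lies at the midline, was the highest of the 5 in both sections, at 10.7% in SUS and 12.4% in RES.

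In the hippocampus the sections differed in the spread of the values as well as in the median. The tenth percentile was 4.85% in SUS and 4.24% in RES, whereas the ninetieth was 10.8% and 19.1%. Spots above 15% made up 3 of 273 in SUS, or 1.10% (exact binomial interval 0.227 to 3.18), and 56 of 271 in RES, or 20.7% (interval 16.0 to 26.0), and in CON they made up 72 of 279, or 25.8%. On the map of the RES section these spots form a bright band along the curve of the hippocampus between darker bands, and the SUS section holds no such band. The threshold of 15% was chosen after the values were seen.

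The band lay mainly in DG. There the median was 7.76% in SUS and 12.9% in RES, a ratio of 0.600 (interval 0.467 to 0.807), with 2 of 86 SUS spots and 32 of 84 RES spots above 15%. CON had a DG median of 8.46%, near that of SUS, but 20 of its 69 DG spots were above 15%, so its upper values were like those of RES. CA3 had 8.38% in SUS and 10.7% in RES, a ratio of 0.782 (interval 0.561 to 1.08), with 1 of 64 and 12 of 68 spots above 15%. CA1 had a ratio of 0.859 (interval 0.712 to 1.02), with 0 of 123 SUS spots, which allows a share of up to 2.44%, and 12 of 119 RES spots above 15%.

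In DG the shallower spots of RES had a higher median percentage than the deeper ones. Among the shallower 42 or 43 DG spots of each section, by rank of UMIs, the median percentage was 9.13% in SUS and 19.3% in RES, a ratio of 0.474 (interval 0.387 to 0.647), although their UMIs were alike, with a ratio of 1.05 (interval 0.786 to 1.32). Among the deeper ones it was 6.30% and 7.66%, a ratio of 0.822 (interval 0.548 to 1.29). Over HIP as a whole the shallower and deeper spots had ratios of 0.629 (interval 0.550 to 0.729) and 0.893 (interval 0.730 to 1.07). At equal UMIs the ratio was 0.574 in DG, close to the ratio over all its spots. The rank correlation of UMIs and mitochondrial percentage over HIP spots was -0.591 in SUS and -0.775 in RES, as a description of spots that share a library.

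The tissue rim was looked at apart from the inside. Within 3 steps of a place without tissue the whole section had a median of 9.81% in SUS and 9.86% in RES, a ratio of 0.995 (interval 0.874 to 1.16), against 0.823 (interval 0.795 to 0.849) further in. These rims count any place without tissue, also inside the section, and they were unlike in makeup. FB gave 0 spots to the rim in SUS and 47 in RES, LV 0 and 9, TEP 34 and 0, and ENTl 11 and 1. The part of this in the ratio was not tested. The Isocortex rim had a ratio of 0.824 (interval 0.677 to 0.998), near the 0.785 (interval 0.747 to 0.828) of its inside, and CNU had 0.767 (interval 0.603 to 1.17) and 0.769 (interval 0.731 to 0.812), with overlapping intervals of rim and inside in both. HY had 1.15 (interval 0.971 to 1.27) and 1.03 (interval 0.969 to 1.10). In OLF the rim had 13.6% in SUS and 11.5% in RES, a ratio of 1.18 (interval 0.395 to 1.90), and the inside 5.54% and 7.42%, a ratio of 0.747 (interval 0.676 to 0.812). The rim intervals of these 4 regions overlapped, so no difference between their rims was shown. Spots above 15% in OLF numbered 53 of 216 in SUS and 39 of 180 in RES, and 0 of them lay inside the rim in either section, which allows a share of up to 3.03% of the 99 SUS spots and 3.49% of the 86 RES spots there. In TEP the ninetieth percentile was 2.09 times as high in SUS as in RES in ENTl 2.50 times and in AUD 1.17 times. In RES, 11 spots of TEP, 5 of ENTl and 15 of AUD lay in the last columns of the slide, and the part of this in the values was not tested. Inside the rim TEP had 4.91% and 5.60%, a ratio of 0.876 (interval 0.841 to 0.953), so it joined the other cortical areas there. In PTL the ratio inside was 0.656 (interval 0.605 to 0.709).

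**Figure D2:**
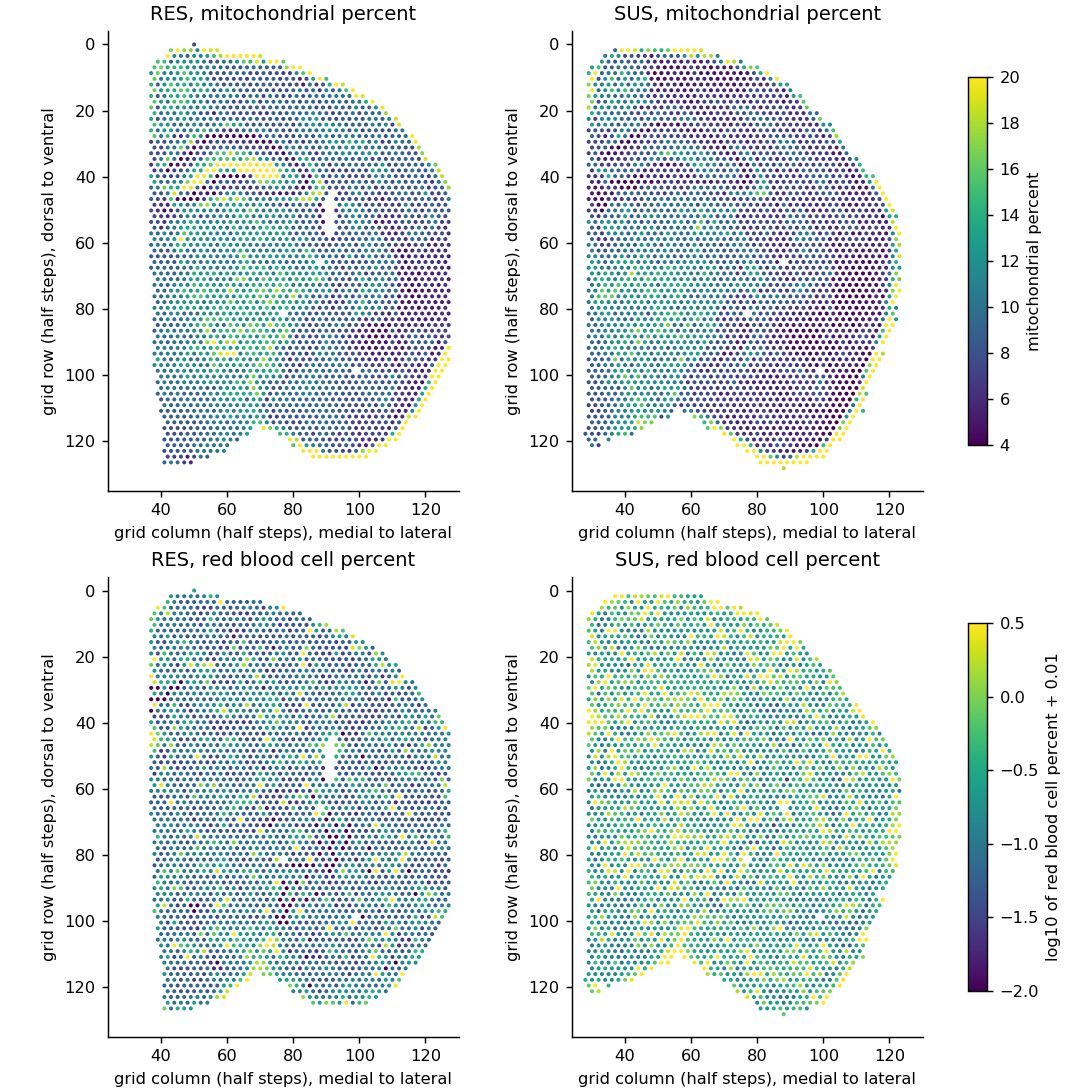
Maps of the RES (left) and SUS (right) sections, each point a spot at its place on the capture grid, coloured by mitochondrial percentage (top, colours limited to 4 to 20%) and by the log10 of the red blood cell percentage plus 0.01 (bottom). The band of high mitochondrial percentage in the hippocampus is seen in RES, where 56 HIP spots are above 15%, and not in SUS, where 3 are. The red blood cell percentage is higher over the whole SUS section.

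Spots of equal depth gave the same direction for the mitochondrial percentage in most regions. Over bins of 2500 UMIs the whole-section ratio was below 1 in 9 of 10 bins, lowest at 0.742 (interval 0.673 to 0.811) for 7500 to 10000 UMIs and highest at 1.06 (interval 0.913 to 1.28) for 2500 to 5000 UMIs. The interval lay wholly below 1 in the bins from 5000 to 15000 UMIs and included 1 in all others. These bins pool regions whose depth differed between the sections. By region the equal-depth ratio was 0.757 in Isocortex, 0.756 in HIP, 0.764 in AMY, 0.773 in CNU, 0.954 in TH and 0.885 in FB. In HY it was 1.13, and among HY spots of 10000 to 15000 UMIs it was 1.16 (interval 1.07 to 1.251), wholly above 1, from 96 SUS and 133 RES spots. In OLF it was 1.17 in place of 0.753, while among OLF spots of 10000 to 15000 UMIs it was 0.919 (interval 0.568 to 1.26), from 47 SUS and 10 RES spots, so the side of 1 depended on how depth was matched.

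The ribosomal protein percentage differed little between the sections, and the ratio reached at most 1.07 in the larger regions. FB had a median of 12.0% in SUS and 11.2% in RES, a ratio of 1.07 (interval 1.01 to 1.13), and was the highest region in both. HIP had a ratio of 1.07 (interval 1.02 to 1.12), CNU 1.06 (interval 1.02 to 1.12), TH 1.06 (interval 1.02 to 1.10) and Isocortex 1.02 (interval 1.01 to 1.04). AMY had 0.998 (interval 0.968 to 1.04) and HY 0.995 (interval 0.962 to 1.03). OLF went the other way, with 6.25% in SUS and 6.56% in RES, a ratio of 0.952 (interval 0.922 to 0.993). At equal UMIs the ratio was 0.987 in OLF and 1.15 in FB.

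Among the areas whose interval lay above 1, CA1, the output field of the hippocampus, had the highest ratio, 1.09 (interval 1.04 to 1.14), with 7.84% in SUS and 7.20% in RES. SUS was the higher in 69.4% of the pairs of CA1 spots, in 72.9% of those of TEP and in 72.6% of those of ENTl. DG had 1.02 (interval 0.987 to 1.06) and CA3 1.02 (interval 0.948 to 1.10). PTL, with 7.06% and 7.09%, and SSp, with 6.98% and 7.01%, had the same ratio of 0.995 on the other side of 1 from Isocortex as a whole, with intervals that included 1. RSP had 1.07, AUD 1.04 and TEP 1.06. ENTl had 1.13 (interval 0.980 to 1.23), D3V 1.06 and LV 0.811 (interval 0.634 to 1.66). The 2 areas with the lowest mitochondrial ratios, DG and PTL, whose intervals overlapped those of some other areas, were thus near 1 for ribosomal protein transcripts.

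**Figure D3:**
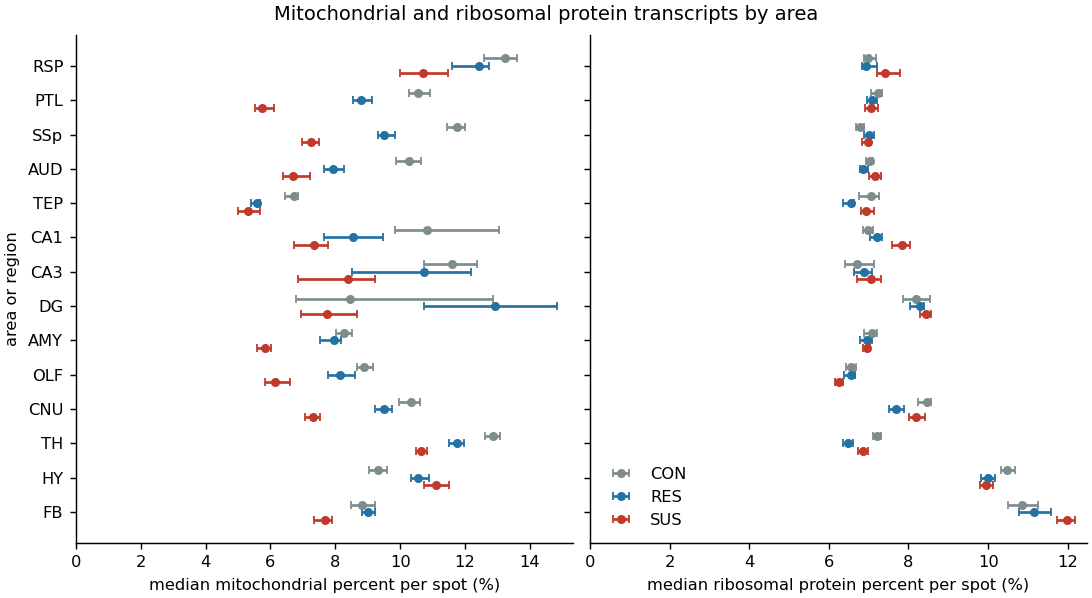
Median mitochondrial (left) and ribosomal protein (right) percentage per spot in CON, RES and SUS, by cortical and hippocampal area and by the 6 other larger regions, with 95% intervals over spots. Mitochondrial medians of SUS are the lowest of the 3 sections in every row but HY, while the ribosomal medians lie close together.

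**Figure D4:**
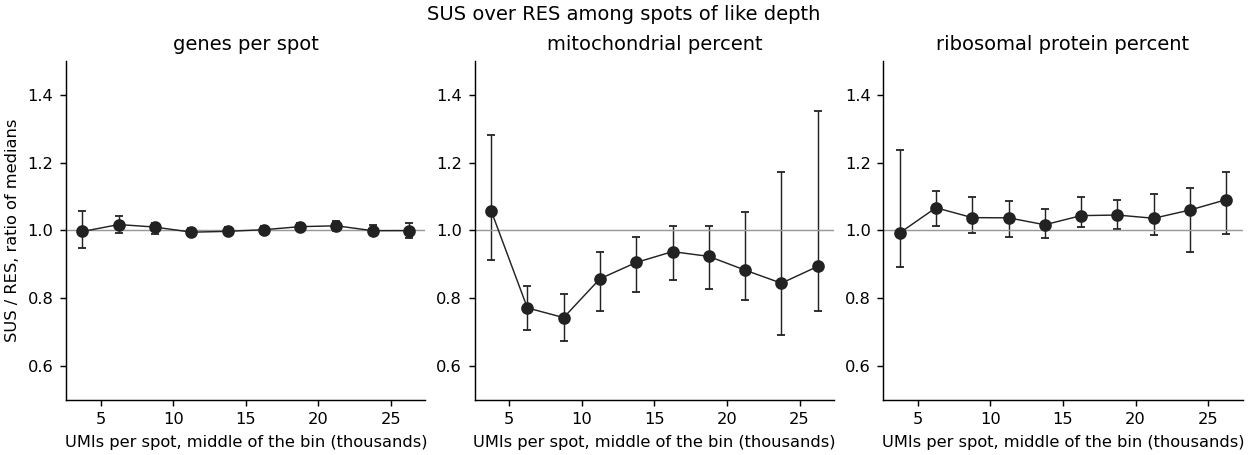
Ratio of the SUS to the RES median among spots of like depth, in bins of 2500 UMIs over the whole section, for genes per spot, mitochondrial percentage and ribosomal protein percentage, with 95% intervals. Gene ratios lie between 0.995 and 1.02, mitochondrial ratios below 1 in 9 of 10 bins and ribosomal ratios above 1 in 9 of 10. Mitochondrial intervals lie wholly below 1 only between 5000 and 15000 UMIs, and most ribosomal intervals include 1.

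The red blood cell percentage had a higher median in SUS in each of the 17 areas, with the whole interval above 1 in 15 of them and not in the ventricles LV and D3V, and it was the measure with the widest gap between the sections. HIP had a median of 0.422% in SUS and 0.0879% in RES, a ratio of 4.80 (interval 3.65 to 6.45). Isocortex had 0.281% and 0.0625%, a ratio of 4.50 (interval 4.01 to 5.09). CNU had 0.297% and 0.0707%, a ratio of 4.21 (interval 3.36 to 5.22), and TH had 0.290% and 0.0718%, a ratio of 4.04 (interval 3.41 to 4.93). Lower ratios were found in AMY, at 3.27 (interval 2.41 to 4.16), FB, at 2.82 (interval 2.32 to 3.68), HY, at 2.77 (interval 2.22 to 3.57), and OLF, at 2.52 (interval 1.96 to 3.55). The order CON below RES below SUS held in 17 of 17 areas, CON having a whole-section median of 0.0154%.

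Inside the cortex and hippocampus the ratio was highest in DG, with 0.486% in SUS and 0.0778% in RES, a ratio of 6.24 (interval 3.78 to 10.5). SSp had 0.319% and 0.0570%, a ratio of 5.60 (interval 4.24 to 7.29), TEP 0.281% and 0.0533%, a ratio of 5.28 (interval 3.70 to 8.02), and PTL 0.287% and 0.0565%, a ratio of 5.09 (interval 3.85 to 7.42). CA1 had 0.431% and 0.1003%, a ratio of 4.30 (interval 2.83 to 6.16), and CA3 0.302% and 0.0743%, a ratio of 4.07 (interval 2.78 to 7.70). RSP had 0.323% and 0.0831%, a ratio of 3.88 (interval 2.54 to 7.50), and AUD 0.234% and 0.0669%, a ratio of 3.49 (interval 2.65 to 4.29). All these intervals lay above 1, and they overlap each other, so the areas cannot be ranked.

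ENTl had the highest ratio of all, 7.29 (interval 3.92 to 14.8), with 0.379% in SUS and 0.0520% in RES over 30 and 31 spots, but the ratio of the means there was 2.11. Means also lowered the ratio to 1.59 in AMY, 3.37 in SSp and 1.42 in D3V, so the height of these ratios rests on the use of medians. D3V had the highest medians, 1.36% and 0.538%, a ratio of 2.52 (interval 0.0863 to 27.7), and LV had 0.360% and 0.274%, a ratio of 1.32 (interval 0.273 to 13.2). These ventricles border the choroid plexus, a tissue rich in vessels, and their few spots leave the ratio undetermined.

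The SUS percentage was the higher one at every percentile taken from the fifth to the ninety-ninth. Which spots lie on vessels is not known from the table. At the fifth percentile SUS had 0.0962% and RES 0.0178%, a ratio of 5.39. The ratio was 3.87 at the lower quartile, 4.61 at the upper quartile and 6.03 at the ninetieth percentile, and it was 1.87 at the ninety-ninth, where SUS had 8.57% and RES 4.59%. A percentage of exactly 0 was found in 0 of 2840 SUS spots, which allows a share of up to 0.106%, and in 71 of 2828 RES spots, or 2.51%. Of those 71 spots, 51 were in FB, the region with the shallowest spots of RES. Above 0.1% were 94.2% of SUS spots and 35.3% of RES spots, above 1% 17.9% and 4.46%, and above 5% 2.99% and 0.955%.

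The highest spots held a smaller part of the total in SUS. The top 5% of spots accounted for 40.4% of the summed percentages in SUS, 61.2% in RES and 71.2% in CON. Adjacent spots of 1 region were less alike in this measure than in the others, with a rank correlation of 0.202 in SUS and 0.278 in RES. Spots above 1% were found in every larger region of SUS, from 9.05% of the spots of AMY to 22.3% of those of HIP, and in RES from 2.85% in TH to 6.51% in HY.

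Depth moved the regional red blood cell ratios but not their direction in the larger regions other than FB. Over bins of 2500 UMIs the whole-section ratio was between 3.26 and 4.51 in 10 of 10 bins. At equal UMIs the ratio was 3.87 in OLF and 3.97 in HY, above the 2.52 and 2.77 found over all their spots, and the 8 regions ran from 3.26 to 4.64. Among spots of 10000 to 15000 UMIs they ran further apart, from 0.852 in FB, with 15 SUS and 5 RES spots, to 5.12 in HIP, and OLF had 2.52 and AMY 2.72. At the cortical rim the ratio was 6.09 (interval 4.39 to 8.99) and further in 3.99 (interval 3.55 to 4.47).

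**Figure D5:**
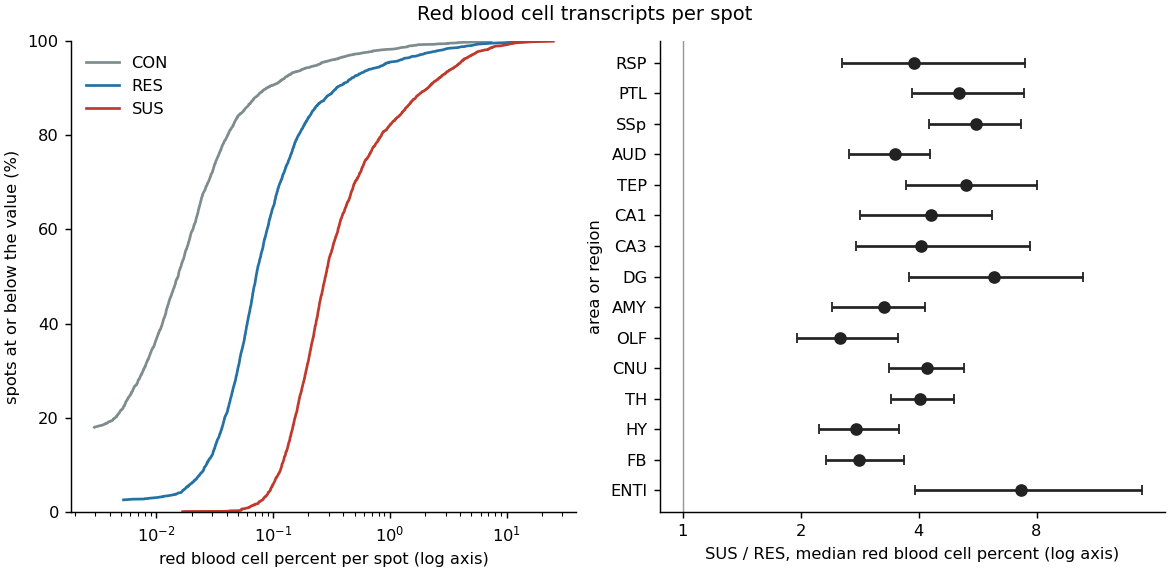
Red blood cell percentage per spot. Left, share of spots at or below each value in CON, RES and SUS, on a log axis that leaves out spots at 0; right, ratio of the SUS to the RES median with 95% intervals in 15 areas (the ventricles are left out), on a log axis. The curve of SUS lies to the right of that of RES from the fifth to the ninety-ninth percentile, and the ratios shown run from 2.52 in OLF to 7.29 in ENTl.

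The measures moved together in part. The red blood cell interval lay above 1 in 15 of 17 areas, whether the UMI ratio was above 1, as in OLF, or below 1, as in CNU and AMY. Over the spots of the whole section the rank correlation of red blood cell and mitochondrial percentage was 0.184 in SUS and 0.221 in RES, and that of red blood cell percentage and UMIs was -0.192 and -0.171. Among spots with a red blood cell percentage under 1%, none of the ratios recomputed for the other 4 measures moved beyond its spread. Under 0.1%, a range that holds 5.81% of SUS and 64.7% of RES spots, 28 of 44 ratios of regions and areas moved beyond it, without a reversal among those whose interval left out 1. The part of the red blood cell transcripts in the other differences was not tested.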

How the data were processed

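The deposited table lists, for every spot kept by the authors, a UMI count and a gene count (whole numbers, not normalized) and the percent of transcripts from genes of mitochondria, ribosomal proteins and red blood cells, together with the authors' region and area labels; tables of spot positions were also used. The percentages do not look like shares of the deposited UMI count, and no source used here gives their total or the gene lists behind them. Per the study's methods, reads were processed with ST Pipeline, mapped to mm10 and handled in Seurat, genes with few reads and spots under 200 UMIs being removed; the submitters' processing notes name Space Ranger 1.0.0. The choice of listed spots was the authors', who listed 74.9% of the covered places in SUS and 73.2% in RES.

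Samples were grouped by GEO's labels, with 1 section per condition and 0 value columns without a sample. For each section, region and area the median of each measure was taken with a 95% binomial order-statistic interval. A ratio is the SUS over the RES median, and its interval runs from the lower SUS bound over the upper RES bound to the reverse, which makes it wide. Shares carry exact Clopper-Pearson intervals, and a count of 0 is given the limit of 3 spots. Intervals cover the spread over spots only. The equal-UMI ratio is the mean log ratio over bins of 2500 UMIs with at least 5 spots a side, weighted by the smaller number of spots. Grid steps were counted from the nearest place on the slide without tissue. All 11 regions and 17 areas are accounted for, and an area was given in full where its ratio left 0.8 to 1.25 or opposed its region. The members and lists were chosen with earlier results of these data known. Alternatives were the mean, division by the section's median, 10000 to 15000 UMIs, at least 1000 UMIs, spots with 6 listed neighbours, spots inside a region, equal UMIs, equal weights for regions, and, chosen after seeing the data, spots under 0.1% or under 1% or above 0 of red blood cell percentage and spots at least 4 steps from the margin or the end of the slide. The scripts were tested on simulated data and used scipy 1.17.1, pandas 2.3.3 and numpy 2.4.6 under Python 3.11.15, with figures by matplotlib 3.10.9.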

Additional observations from a re-analysis of the deposited data

Results flagged for a closer look

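In OLF the median ribosomal protein percentage of SUS was 0.952 of that of RES, with the whole interval below 1, while it was above 1, with the whole interval above it, in Isocortex, HIP, CNU, TH and FB. This difference in direction between regions was not tested, since each condition has 1 section.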

How the results depend on the processing

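A reversal is a crossing of 1 by a ratio whose reported interval left out 1. Over regions and areas, 17 of 430 alternatives to such ratios reversed, 0 of 32 for UMIs. Of 386 alternatives to ratios whose interval included 1, 70 lay on the other side of 1, 20 of 106 for UMIs. For the whole section, weighting the regions equally gave 1.18 for UMIs, 1.11 for genes and 3.52 for the red blood cell percentage. Means in place of medians gave 0.870 for the mitochondrial and 3.15 for the red blood cell percentage. Among spots of 10000 to 15000 UMIs the gene ratio was 1.0001, with 3 of 8 regions above RES, and the mitochondrial ratio 0.874; equal UMIs gave a gene ratio of 1.01. Spots under 0.1% of red blood cell percentage, few of which are in SUS, gave 1.34 for UMIs, 1.17 for genes, 0.749 for mitochondrial and 1.12 for ribosomal protein percentage.

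Reversals by depth were genes in OLF (0.997) and HY (0.999) and ribosomal protein percentage in OLF (1.04) and red blood cell percentage in FB (0.852) at 10000 to 15000 UMIs, and at equal UMIs genes in HY (0.981) and mitochondrial percentage in OLF (1.17), where 2 of 8 regions were then above RES. The cause was not tested. Division by the section's median asks whether a region stands above its own section: mitochondrial percentage then gave TH 1.09, FB 1.03, RSP 1.03 and AUD 1.01, with 3 of 8 regions above RES; ribosomal protein percentage gave Isocortex 0.997; and red blood cell percentage gave AMY 0.830, OLF 0.640, HY 0.702, FB 0.716, RSP 0.985 and AUD 0.885, with 4 of 8 above RES. This comes from the division itself. In 0 regions did the intervals of the spot shares fail to overlap. Leaving out spots under 1000 UMIs or at the edge reversed no ratio. The number of spots limits the ventricles and ENTl, whose intervals are wide.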

Other observations

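The sections overlapped on the slide but were shifted. In both, 2500 grid places were listed, and 63.6% of them carried the same region label. The covered places that were not listed numbered 950 in SUS and 1033 in RES. In TH the mitochondrial ratio changed from the midline outwards, with 1.04 in the medial band of 3 equal ones, 0.907 in the middle one and 0.825 in the lateral one, while the red blood cell ratio was 3.44, 4.01 and 4.69. In HY the middle one of 3 equal bands from dorsal to ventral had a red blood cell ratio of 1.52, between 3.51 above and 3.01 below.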
